A study of Mus musculus with 6 samples.

Results

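Glul, Slc1a2, Rhbg, Oat, Axin2, Lgr5, Tbx3, Rnf43, Znrf3 and Lect2 are 10 mouse genes of the pericentral hepatocytes, the liver cells that line the central vein, and of the Wnt signal that acts there. They were chosen by symbol, with earlier results of these data known, and each matched 1 row of the 22274 genes in the deposited table. Bulk mRNA sequencing had been done on livers of C57 mice in 2 groups of 3 libraries. The Ad-Dyrk1b group had been given an adenovirus that overexpresses the mouse kinase gene Dyrk1b, and the Ad-EGFP group a control adenovirus, so both groups carried a virus. The sources used here give no age, sex, virus dose, time after infection or promoter of the viral insert. Nothing in the labels ties each library to its own mouse, and the p-values describe only the library-to-library spread, part of which may be technical. All 10 genes passed the filter on low counts. In bulk liver, more cells that express a gene and more RNA in each cell cannot be told apart.

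Endothelial cells of the central vein secrete Wnt ligands and R-spondin, which keep beta-catenin active in the neighbouring hepatocytes. Those hepatocytes take up the ammonia that has escaped the urea cycle of the periportal zone and fix it into glutamine. Wnt signalling also switches on its own receptor partners and brakes, so genes such as Axin2 and Lgr5 are widely used as readouts of the pathway.

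Total counts ranged from 17326516 to 20024888 per library. Dyrk1b stood at 62.2, 101 and 96.5 FPKM (fragments per kilobase of gene, scaled to the total count) in Ad-Dyrk1b replicates 1, 2 and 3, and at 3.81, 4.97 and 4.16 FPKM in the Ad-EGFP replicates. Counts of Dyrk1b do not separate the viral from the mouse transcript. The hepatocyte marker Alb was not called (log2 fold change -0.10 ± 0.15, SE, edgeR adjusted p = 0.703) at a mean of 28810 FPKM with Dyrk1b and 32881 FPKM in the controls. Ad-Dyrk1b replicate 3 stood apart in transcripts of red blood cells, with a summed 3838 CPM (counts scaled to the library total, with TMM factors) over 6 erythroid markers. The other Ad-Dyrk1b libraries had 871 and 1119 CPM and the Ad-EGFP libraries 525 to 842 CPM. All 6 markers had a log2 fold change above 0, with a median of 1.51. Of them edgeR, DESeq2 and limma-voom each called 0, and 0 passed at an unadjusted p under 0.05 by edgeR. Without its robust option edgeR called 2 higher. By edgeR, with an adjusted p under 0.05, 1607 of 13201 tested genes were called (12.2%), of which 972 were higher with Dyrk1b (7.36% of those tested) and 635 lower (4.81%). The higher genes made up 60.5% of these calls, but 39.8% with library size as the only scaling. Of the 10 genes, 5 were called higher with that scaling.

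Promoter sequences are shown for the called genes for which RefSeq (build GRCm38.p6, the assembly also named mm10) gave an entry. Entries were found for 6 of the 10 genes, not for Rhbg, Lgr5, Tbx3 or Znrf3. The windows run 5′ to 3′ over the 250 bases before the RefSeq start. For Slc1a2 only 30 bases are shown, since its window overlaps an annotated untranslated region of another Slc1a2 transcript. Capitals mark CTTTGAT or its reverse complement ATCAAAG, the core letters bound by TCF/LEF factors, the DNA-binding partners of beta-catenin.
Glul, chr1:153899679-153899928, plus strand: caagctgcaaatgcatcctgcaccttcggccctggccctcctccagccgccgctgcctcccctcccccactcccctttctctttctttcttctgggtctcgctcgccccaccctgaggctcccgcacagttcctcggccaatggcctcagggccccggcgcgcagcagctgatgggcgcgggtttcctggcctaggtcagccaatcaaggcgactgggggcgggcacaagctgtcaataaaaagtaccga
Oat, chr7:132576399-132576648, minus strand: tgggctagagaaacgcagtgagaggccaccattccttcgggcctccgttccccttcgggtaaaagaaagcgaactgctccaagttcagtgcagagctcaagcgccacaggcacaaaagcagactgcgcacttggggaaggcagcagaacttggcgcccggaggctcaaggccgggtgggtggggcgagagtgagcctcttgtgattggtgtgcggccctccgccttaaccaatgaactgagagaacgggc
Slc1a2, chr2:102706220-102706249, plus strand: agaagagggacATCAAAGgccccaaatggt
Lect2, chr13:56548539-56548788, minus strand: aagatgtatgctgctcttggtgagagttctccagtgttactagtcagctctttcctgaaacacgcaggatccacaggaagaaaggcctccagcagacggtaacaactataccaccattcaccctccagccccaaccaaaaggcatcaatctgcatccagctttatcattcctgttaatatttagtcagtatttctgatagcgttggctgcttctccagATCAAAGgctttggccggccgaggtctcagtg
The letters ATCAAAG occurred once in the Slc1a2 window, 207 to 201 bases before the start, and once in the Lect2 window, 32 to 26 bases before it. Either strand was searched, and 3.21% of 32851 promoter windows of this length held a match. The variant CTTTGAA or TTCAAAG, held by 4.46% of windows, occurred in none of the 7 windows of the 6 genes. Neither set of letters was found in the windows of Glul, Oat, Axin2 or Rnf43. The RefSeq start of Slc1a2 lies 47.8 kb inside the gene as GENCODE M21 draws it. The Glul, Oat and Axin2 windows were rich in G and C (64.8%, 60.0% and 69.2%), while those of Slc1a2 and Lect2 held 44.8% and 48.0%.

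Of the 10 genes, 6 rose with Dyrk1b, namely Oat, Rhbg, Slc1a2, Lgr5, Glul and Lect2, and 0 fell (edgeR adjusted p under 0.05), against 7.36% and 4.81% of all tested genes. At an unadjusted p under 0.05 edgeR gave 8 higher and 0 lower, and DESeq2 and limma-voom each called 6 higher and 0 lower. The median log2 fold change of the 10 was 0.72, against -0.00 (-0.00498) over all tested genes. In normalized CPM the groups stood apart without overlap for 7 of the 10, all higher in Ad-Dyrk1b. For comparison, 33.5% of the 13201 tested genes showed such a gap, and 16.8% showed it with Ad-Dyrk1b higher. The 10 genes and the lists below were chosen with earlier results known, so such shares describe them and are not a test. All 4 genes of ammonia and glutamate handling were called and kept their calls when any 1 library was left out. Of the 6 Wnt genes, Lgr5 and Lect2 were called, and both lost the call in some of those fits.

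**Figure D1:**
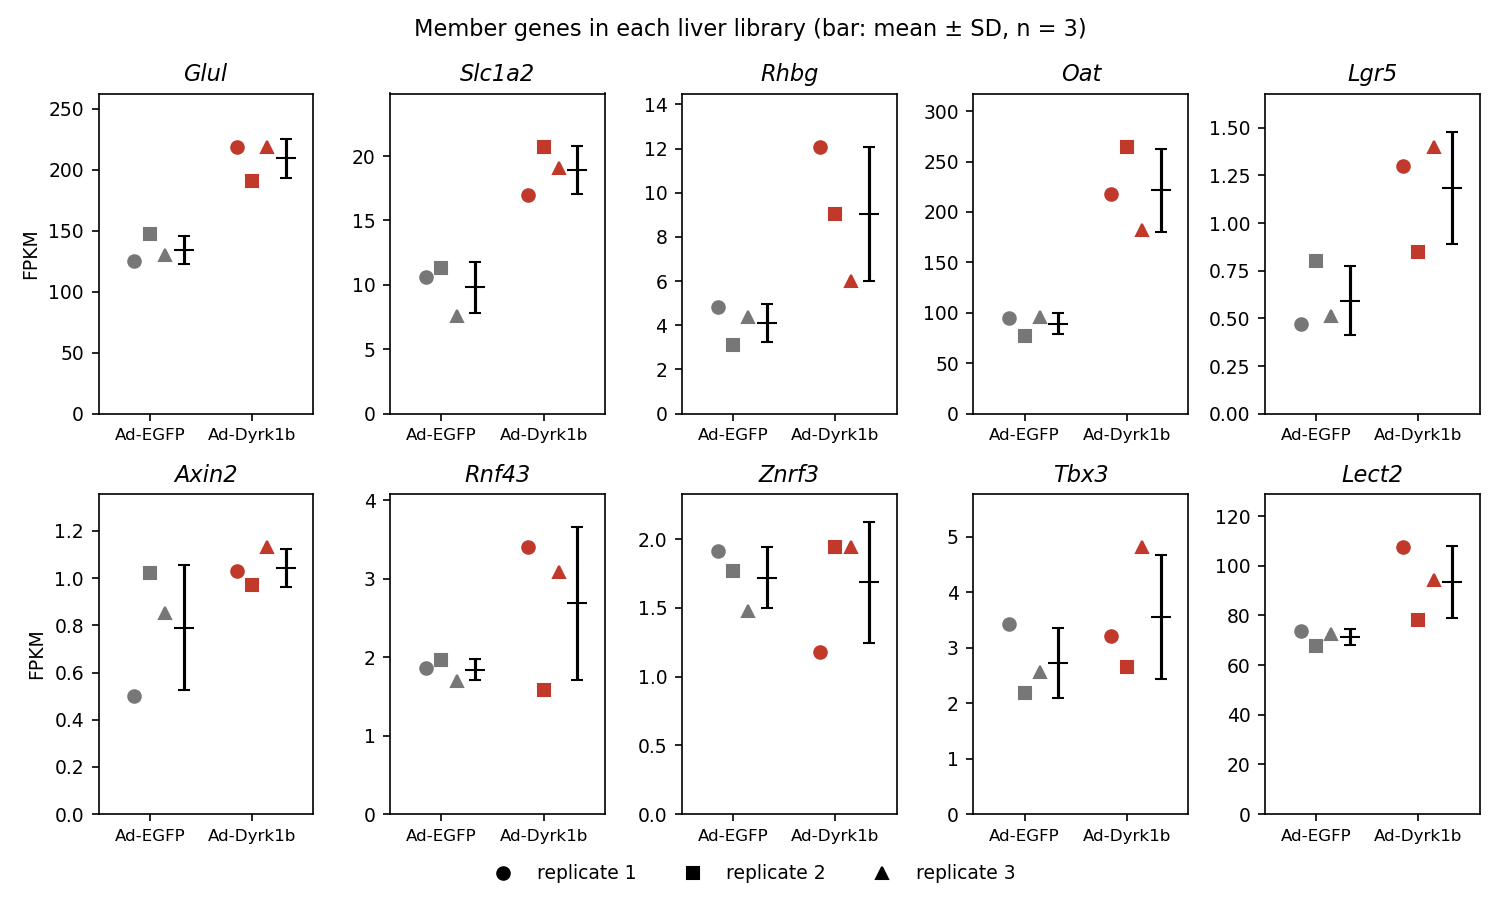
FPKM of the 10 genes in each library (grey, Ad-EGFP; red, Ad-Dyrk1b; marker shape gives the replicate), with the mean ± SD of each group beside the points, on linear axes that start at 0. The groups stand clear of each other for Glul, Slc1a2, Rhbg, Oat, Lgr5 and Lect2, whereas Axin2, Rnf43, Znrf3 and Tbx3 overlap.

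Among the genes of ammonia clearance, Glul encodes glutamine synthetase, which joins ammonia to glutamate. Glul (ENSMUSG00000026473, chr1:153899944-153909723, plus strand, mm10) stood at 219, 191 and 219 FPKM in Ad-Dyrk1b replicates 1, 2 and 3, and at 125, 147 and 130 FPKM in the Ad-EGFP replicates. Every Ad-Dyrk1b library was above every Ad-EGFP library, and replicate 2 was the lowest of the first group and the highest of the second. Glul rose by 0.73 ± 0.11 on the log2 scale (SE), or 1.66-fold (edgeR adjusted p = 0.00131). The log2 value lay between 0.64 and 0.79 in all 15 other fits. Glul shares 116 exon bases with Teddm2 on the opposite strand, which had at most 5 counts in any library.

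Oat encodes ornithine aminotransferase, a mitochondrial enzyme that turns ornithine into a precursor of glutamate and proline. Oat (ENSMUSG00000030934, chr7:132557478-132576398, minus strand) stood at 217, 265 and 182 FPKM in Ad-Dyrk1b replicates 1, 2 and 3, against 95.2, 77.1 and 95.8 FPKM in the Ad-EGFP replicates. The lowest Ad-Dyrk1b library lay well above the highest control. Its rise of 1.39 ± 0.16 (SE; 2.63-fold, edgeR adjusted p = 0.000191) was the largest among the 10 genes in that fit. Oat overlaps the annotated span of Fgfr2 on the same strand but shares 0 exon bases with it.

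Slc1a2 encodes a plasma membrane transporter that takes up glutamate, the partner substrate of glutamine synthetase. Slc1a2 (ENSMUSG00000005089, chr2:102658659-102790784, plus strand) had 16.95, 20.71 and 19.07 FPKM in the Ad-Dyrk1b replicates and 10.6, 11.3 and 7.58 FPKM in the Ad-EGFP replicates, in the order 1, 2, 3. The groups did not overlap, and the control replicate 3 was the lowest of all. Slc1a2 rose by 1.13 ± 0.15 (SE; 2.19-fold, edgeR adjusted p = 0.000816).

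Rhbg encodes an ammonium transporter of the Rh family that sits in the membrane of epithelial cells. Rhbg (ENSMUSG00000104445, chr3:88242874-88254709, minus strand) had 12.1, 9.03 and 6.01 FPKM in Ad-Dyrk1b replicates 1, 2 and 3, against 4.81, 3.13 and 4.36 FPKM in the Ad-EGFP replicates. The spread within the Ad-Dyrk1b group was wide, and replicate 3 came closest to the controls. Rhbg rose by 1.22 ± 0.24 (SE; 2.32-fold, edgeR adjusted p = 0.0104), and stayed called with 1 library left out, between 0.997 (without Ad-Dyrk1b replicate 1) and 1.43 (without Ad-Dyrk1b replicate 3). Rhbg shares 1190 exon bases on the same strand with the gene model Gm38392, which had 112, 125 and 146 counts in the Ad-Dyrk1b and 40, 62 and 49 counts in the Ad-EGFP replicates. The values of Rhbg are uncertain, since no source used here states how reads were divided between these models.

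Lgr5, one of the Wnt receptor genes, encodes a receptor for R-spondins that heightens the response to Wnt ligands. Lgr5 (ENSMUSG00000020140, chr10:115450311-115587780, minus strand) was low, with 117, 80 and 118 counts (1.30, 0.85 and 1.40 FPKM) in Ad-Dyrk1b replicates 1, 2 and 3. In the Ad-EGFP replicates it had 40, 66 and 42 counts (0.47, 0.80 and 0.51 FPKM). The groups did not overlap, but Ad-Dyrk1b replicate 2 and Ad-EGFP replicate 2 stood close together. Lgr5 rose by 1.07 ± 0.27 (SE; 2.10-fold, edgeR adjusted p = 0.0230). Replicates 1 and 3 of both groups each decided this call: leaving out the Ad-Dyrk1b ones gave edgeR adjusted p = 0.0673 and 0.0740, and the Ad-EGFP ones 0.0732 and 0.0790 (range over all alternatives 0.00454 to 0.0790). It was also lost with limma-trend on log2(FPKM + 1), at 0.45 (adjusted p = 0.0620), and on log2(FPKM + 0.1), at 0.89 (adjusted p = 0.0663).

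Axin2 encodes a scaffold of the complex that destroys beta-catenin and is itself a target of the pathway. Axin2 (ENSMUSG00000000142, chr11:108920349-108950783, plus strand) had 84, 75 and 77 counts in the Ad-Dyrk1b replicates and 33, 45 and 63 counts in the Ad-EGFP replicates. In normalized CPM the groups did not overlap, with 4.01 to 4.47 CPM in Ad-Dyrk1b and 1.83 to 3.50 CPM in Ad-EGFP. In FPKM they did, because Ad-EGFP replicate 2 stood at 1.02 and Ad-Dyrk1b replicate 2 at 0.97. The log2 fold change of 0.71 ± 0.27 (SE) was not called (edgeR adjusted p = 0.0999).

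Rnf43 and Znrf3 encode related membrane ubiquitin ligases that remove Wnt receptors from the cell surface and that R-spondins hold in check. Rnf43 (ENSMUSG00000034177, chr11:87662722-87735539, plus strand) had 3.40, 1.58 and 3.08 FPKM in the Ad-Dyrk1b replicates and 1.86, 1.96 and 1.70 FPKM in the Ad-EGFP replicates. In FPKM, Ad-Dyrk1b replicates 1 and 3 were above all controls, and replicate 2 was below them. In normalized CPM, Ad-Dyrk1b replicate 2 lay among the controls, at 6.85 CPM against 7.10, 7.28 and 6.06 CPM. Its log2 fold change of 0.62 ± 0.22 (SE) was not called (edgeR adjusted p = 0.0894), and without Ad-Dyrk1b replicate 2 it was 0.86 and called (edgeR adjusted p = 0.0179; range over all alternatives 0.0179 to 0.298). Znrf3 (ENSMUSG00000041961, chr11:5276324-5444847, minus strand) had 1.18, 1.94 and 1.94 FPKM in Ad-Dyrk1b and 1.91, 1.77 and 1.48 FPKM in Ad-EGFP replicates. The groups overlapped fully, with a log2 fold change of 0.05 ± 0.22 (SE, edgeR adjusted p = 0.898) whose sign differed between scalings.

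Tbx3 encodes a T-box transcription factor that beta-catenin activates in liver cells. Tbx3 (ENSMUSG00000018604, chr5:119670669-119684724, plus strand) had 3.22, 2.65 and 4.81 FPKM in the Ad-Dyrk1b replicates, and 3.42, 2.19 and 2.56 FPKM in the Ad-EGFP replicates. Ad-Dyrk1b replicate 3 was the highest library and the others overlapped, so the log2 fold change of 0.46 ± 0.24 (SE) was not called (edgeR adjusted p = 0.249). Without that library it was 0.17. Axin2, Slc1a2 and Tbx3 share 209, 189 and 115 exon bases with antisense gene models (Gm11670, Gm13872 and Tbx3os1), and reads of such partners cannot be told apart unless counting used the strand.

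Lect2 encodes a protein that hepatocytes secrete into blood and that responds to beta-catenin in the liver. Lect2 (ENSMUSG00000021539, chr13:56542464-56548502, minus strand) had 107, 78.3 and 94.4 FPKM in the Ad-Dyrk1b replicates against 73.6, 67.8 and 72.5 FPKM in the Ad-EGFP replicates. The controls lay close together, and Ad-Dyrk1b replicate 2 was only slightly above them. Lect2 rose by 0.47 ± 0.11 (SE; 1.38-fold, edgeR adjusted p = 0.0170). Leaving out replicate 1 of Ad-Dyrk1b ended the call (edgeR adjusted p = 0.0649), as did leaving out replicate 2 or 3 of Ad-EGFP (0.0521 and 0.0517). So did library size as the only scaling (edgeR adjusted p = 0.0529) and limma-trend on either log2 FPKM scale (adjusted p = 0.0872 and 0.0863; range over all alternatives 0.00400 to 0.0872).

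**Figure D2:**
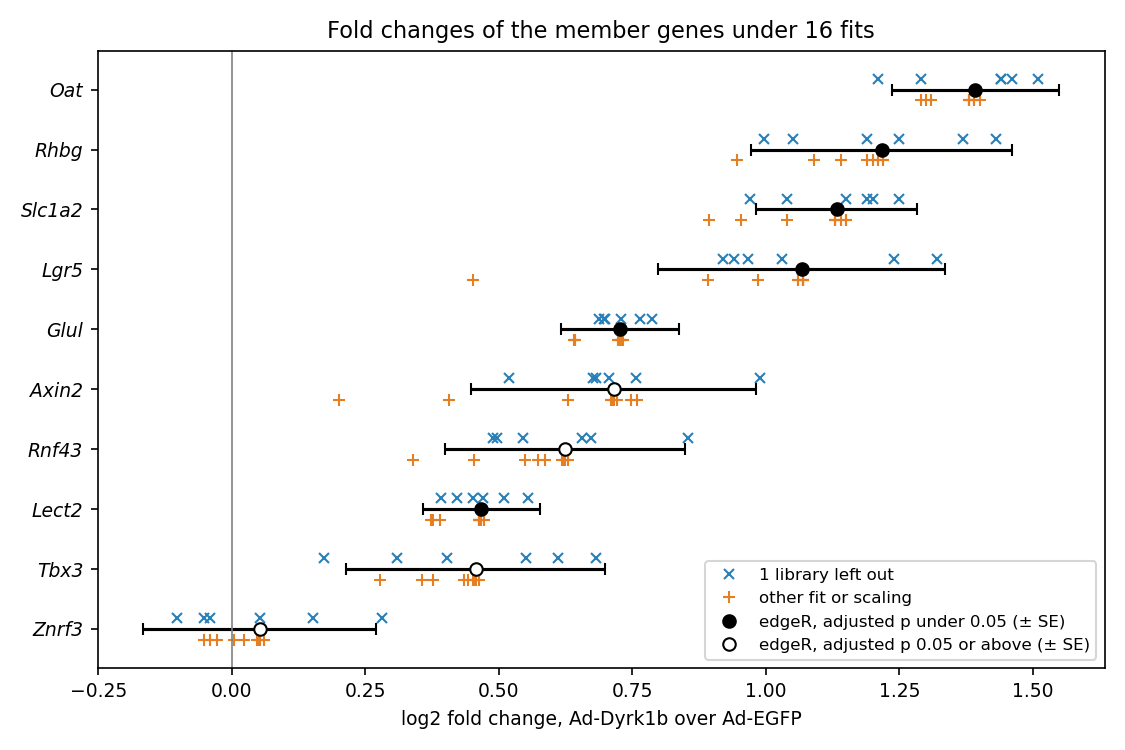
Log2 fold change (Ad-Dyrk1b over Ad-EGFP) of each gene with its SE in the edgeR fit (circles, filled where the adjusted p is under 0.05), with the values from fits that leave out 1 library (blue crosses) and from other tools and scalings (orange plus signs). Oat, Rhbg, Slc1a2 and Glul keep values from 0.64 upward in all 16 fits, while Znrf3 lies on both sides of 0.

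The authors' deposited table gave an adjusted p under 0.05 to Glul, Slc1a2, Rhbg, Oat, Lgr5 and Lect2, all of them higher. Of the 17185 genes with any count, 9.60% passed that threshold in the authors' deposited table and 6.02% were higher. For Lgr5 and Lect2 the authors' deposited table listed adjusted p-values of 0.00783 and 0.00547. For Axin2, Rnf43 and Tbx3 the authors' deposited table listed 0.145, 0.0870 and 0.243.

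The libraries of a group did not rank alike from gene to gene. In normalized CPM, Ad-Dyrk1b replicate 2 was the lowest of its group for 6 of the 10 genes (Glul, Lgr5, Axin2, Rnf43, Tbx3 and Lect2), and the highest for 3 (Oat, Slc1a2 and Znrf3). Ad-Dyrk1b replicate 3, the library rich in red blood cell transcripts, was the lowest for Oat and Rhbg and the highest for 4 others. Leaving it out, 5 genes were called higher.

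The order of the levels, compared per length in FPKM, was Glul, Oat, Lect2, Slc1a2, Rhbg, Tbx3, Rnf43, Znrf3, Axin2 and Lgr5 in the controls, from a mean of 134 down to 0.593 FPKM. In these controls Glul and Oat did not overlap, whereas Rhbg and Tbx3, Rnf43 and Znrf3, and Axin2 and Lgr5 were neighbours whose ranges did. In Ad-Dyrk1b livers Oat (221 ± 41.3 FPKM, SD, n = 3) and Glul (209 ± 16.2 FPKM, SD, n = 3) overlapped at the top. There the neighbours from Tbx3 down to Axin2 overlapped pair by pair, at means of 3.56 to 1.04 FPKM.

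Ratios of FPKM within a library set the genes against each other. With 3 against 3 an exact permutation test cannot go below p = 0.1, and 6 ratios, chosen after the values were seen, were computed. The ratio of Oat to Glul was 0.993, 1.39 and 0.834 in the Ad-Dyrk1b replicates and 0.760, 0.525 and 0.738 in the Ad-EGFP replicates, without overlap (two-sided exact permutation p = 0.1, adjusted p = 0.2). Against Cps1, the first enzyme of the urea cycle, Glul stood at 0.664, 0.452 and 0.484 in Ad-Dyrk1b livers and at 0.226, 0.249 and 0.222 in Ad-EGFP livers. This difference of 1.18 in the mean log2 ratio separated the groups (two-sided exact permutation p = 0.1, adjusted p = 0.2). Against Gls2, the liver glutaminase that releases ammonia from glutamine, Glul stood at 4.13, 3.10 and 4.42 in Ad-Dyrk1b and at 1.39, 2.36 and 1.52 in Ad-EGFP livers (two-sided exact permutation p = 0.1, adjusted p = 0.2). The ratio of Rnf43 to Znrf3 ran from 0.814 to 2.88 with Dyrk1b and from 0.974 to 1.15 in Ad-EGFP livers, so a difference between these related genes was not shown (two-sided exact permutation p = 0.4, adjusted p = 0.4). Slc1a2 and Rhbg over Glul overlapped between the groups (two-sided exact permutation p = 0.2 and 0.3, adjusted p = 0.3 and 0.36).

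**Figure D3:**
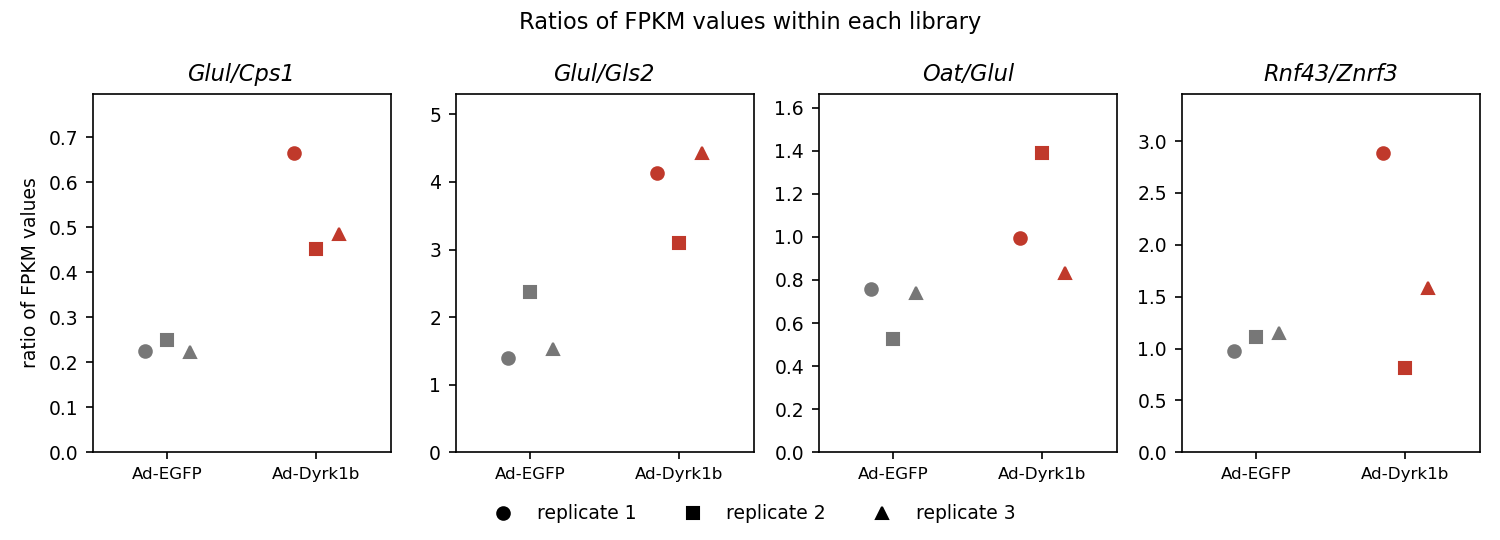
Ratios of FPKM values within each library for 4 gene pairs (grey, Ad-EGFP; red, Ad-Dyrk1b; marker shape gives the replicate), on linear axes that start at 0. Glul over Cps1 runs from 0.452 to 0.664 in Ad-Dyrk1b and from 0.222 to 0.249 in Ad-EGFP livers, whereas Rnf43 over Znrf3 overlaps.

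The gene length implied by a library's count, FPKM and total count was steady for some genes and not for others. For Glul, Rhbg, Oat, Lgr5, Tbx3 and Lect2 it varied by a CV of 0.00538% to 0.446% over the 6 libraries, where the median over 2772 genes with a mean count of at least 1000 was 0.346%. FPKM values are deposited to 2 decimals, which adds rounding error for low genes. For Axin2 the implied length ran from 2.52 kb in Ad-EGFP replicate 2 to 4.28 kb in Ad-EGFP replicate 3 (CV 17.2%). For Slc1a2 it was 3.68 to 3.88 kb in Ad-EGFP and 3.88 to 4.29 kb in Ad-Dyrk1b livers (CV 5.46%), and for Rnf43 the CV was 3.38%. GENCODE M21 lists 7 transcripts of Axin2 (477 to 4260 bases) and 12 of Slc1a2 (193 to 11595 bases). The log2 fold change of Slc1a2 was 1.13 from counts and 0.95 from log2(FPKM + 0.1), and that of Axin2 was 0.71 and 0.41. These fits also differ in scaling, tool and pseudocount, and counts with library size as the only scaling gave 1.04 for Slc1a2 and 0.63 for Axin2. Whether transcript use differed between libraries was not tested.

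**Figure D4:**
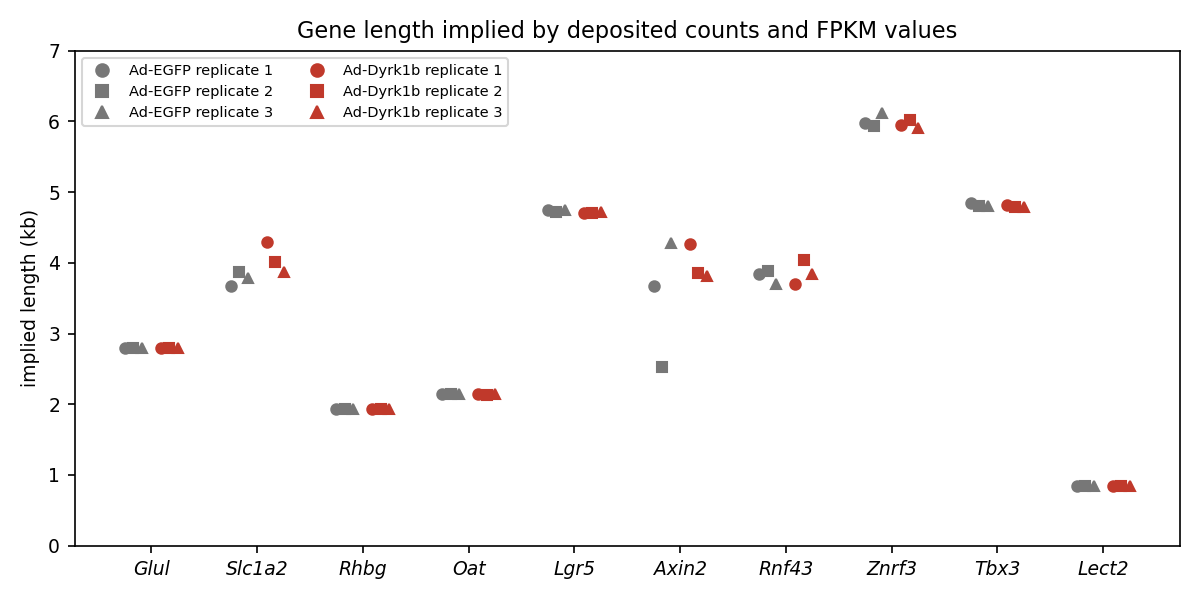
Gene length in kb implied by each library's deposited count and FPKM value for the 10 genes (grey, Ad-EGFP; red, Ad-Dyrk1b; marker shape gives the replicate). Points of a gene coincide for Glul, Rhbg, Oat and Lect2, and spread for Slc1a2, Rnf43 and Axin2, for which Ad-EGFP replicate 2 lies at 2.52 kb.

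Upstream of the 10 genes, 2 of 7 tested Wnt ligand and R-spondin genes rose and 0 fell (edgeR), with a median log2 fold change of 0.40. Wnt2, a ligand of liver endothelial cells, had 48, 45 and 36 counts in the Ad-Dyrk1b and 10, 18 and 22 counts in the Ad-EGFP replicates, a rise of 1.33 ± 0.35 (SE, edgeR adjusted p = 0.0265). Wnt4 had 57, 52 and 60 counts against 26, 25 and 28, a rise of 1.07 ± 0.27 (SE, edgeR adjusted p = 0.0246). Both calls rest on few counts, and with 1 library left out the list had 0 or 1 called genes. The call for Wnt2 was lost on leaving out replicate 1 or 2 of either group (edgeR adjusted p = 0.0586 to 0.0932; lowest over all alternatives 0.0162). Wnt4 lost its call whichever of the 6 libraries was left out (edgeR adjusted p = 0.0509 to 0.0703; lowest over all alternatives 0.0175). The Wnt4 call was also lost with limma-trend on log2(FPKM + 0.1) (adjusted p = 0.0511). Rspo3, the R-spondin of the central vein, had a mean of 2.51 ± 0.835 FPKM with Dyrk1b and 2.04 ± 0.147 FPKM in the controls (SD, 3 libraries each), and its log2 fold change of 0.33 ± 0.21 (SE) was not called (edgeR adjusted p = 0.337). Wnt5b and Wnt9b, the latter picked with its values known, had log2 fold changes of 0.40 ± 0.23 and 0.69 ± 0.39 (SE; edgeR adjusted p = 0.279 and 0.266). Wnt9a, also picked with its values known, was the 1 tested ligand with a log2 fold change below 0 and the 1 lower at an unadjusted p under 0.05. It had 6, 9 and 17 counts in the Ad-Dyrk1b replicates and 20, 31 and 17 counts in the Ad-EGFP replicates, and its -1.09 ± 0.47 (SE) was not called (edgeR adjusted p = 0.145).

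Endothelial cells are a main source of these ligands. Over 12 endothelial markers the summed level ran from 310 to 413 CPM with Dyrk1b and from 213 to 308 CPM in the controls, and 12 of 12 had a log2 fold change above 0, with a median of 0.38. Of them edgeR called 0 (6 higher at an unadjusted p under 0.05), DESeq2 2 and limma-voom 1. The part of endothelial content in the ligand values was not tested.

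Among Wnt receptors outside the 10 genes, 3 of 9 rose and 0 fell by edgeR, with a median of -0.07. Fzd4 and Fzd7, receptors of the Frizzled family, rose by 0.74 ± 0.13 and 0.71 ± 0.13, and the co-receptor gene Lrp5 by 0.57 ± 0.12 (SE; edgeR adjusted p = 0.00290, 0.00464 and 0.00876). These 3 calls held in every alternative. Lrp6 and Lgr4 had -0.27 ± 0.12 and -0.07 ± 0.13 (SE; edgeR adjusted p = 0.165 and 0.781). At an unadjusted p under 0.05 edgeR gave 3 receptors higher and 3 lower, the lower ones being Fzd6, Fzd1 and Lrp6. Fzd6 and Fzd1, picked with their values known, had -0.59 ± 0.19 and -0.53 ± 0.18 (SE; edgeR adjusted p = 0.0550 and 0.0781). Their groups did not overlap in normalized CPM. DESeq2 called 1 receptor lower, and library size as the only scaling gave 2 lower.

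In the relay behind the receptors, 0 of 13 genes rose and 1 fell by edgeR, with a median of -0.16. Btrc, which marks beta-catenin for destruction, fell by 0.45 ± 0.13 (SE, edgeR adjusted p = 0.0420), and the call was lost on leaving out any library other than replicate 2 of Ad-EGFP (edgeR adjusted p = 0.0551 to 0.131). Ctnnb1, which encodes beta-catenin, stood at 63.7, 61.3 and 56.7 FPKM in the Ad-Dyrk1b and 71.0, 83.4 and 74.1 FPKM in the Ad-EGFP replicates. The groups did not overlap, but its log2 fold change of -0.25 ± 0.11 (SE) was not called (edgeR adjusted p = 0.147). Csnk1a1, a kinase of the destruction complex, had -0.17 ± 0.11 (SE, edgeR adjusted p = 0.343). Of 7 TCF/LEF factors and cofactors edgeR, DESeq2 and limma-voom each called 0, and 0 passed at an unadjusted p under 0.05. Tcf7l2 and Pygo2 had 0.19 ± 0.13 and -0.02 ± 0.13 (SE; edgeR adjusted p = 0.352 and 0.930). Of 5 tested Wnt inhibitor genes the 3 tools also called 0 (1 higher at an unadjusted p under 0.05 by edgeR), with a median of 0.43. Notum, a secreted enzyme that inactivates Wnt ligands, stood at 4.92 ± 0.888 FPKM with Dyrk1b against 3.88 ± 1.10 FPKM (SD, 3 libraries each; edgeR adjusted p = 0.220).

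Of 17 tested pericentral hepatocyte genes outside the 10, 9 rose and 0 fell by edgeR, with a median of 0.78. Of the 17, 15 had a log2 fold change above 0. At an unadjusted p under 0.05 edgeR gave 12 higher and 1 lower. The lower one was Ahr, picked with its values known, at -0.46 ± 0.20 (SE, edgeR adjusted p = 0.164). DESeq2 and limma-voom each called 11 higher and 0 lower. The fit with the replicate number as a block called 11 higher and 1 lower. Leaving out replicate 2 of Ad-Dyrk1b gave 9 higher and 1 lower. Cldn2, a tight junction claudin, rose by 1.10 ± 0.11, the cytochrome P450 gene Cyp2e1 by 1.04 ± 0.16 and the proline dehydrogenase gene Prodh by 0.88 ± 0.14 (SE; edgeR adjusted p = 7.96e-05, 0.00134 and 0.00228). Gstm3, a glutathione transferase gene, and Aldh3a2, an aldehyde dehydrogenase gene, had 0.83 ± 0.24 and 0.32 ± 0.14 and were not called (SE; edgeR adjusted p = 0.0575 and 0.163). Of 18 periportal genes 3 rose and 2 fell by edgeR, with a median of -0.07. The number that fell was 5 with DESeq2 or with library size as the only scaling, 3 with limma-trend and 1 with limma-voom. It was also 1 with upper-quartile scaling and 1 without edgeR's robust option. It was 0 on leaving out Ad-Dyrk1b replicate 1 or Ad-EGFP replicate 1 or 3, and 1 to 3 on leaving out another library. Those that rose were Pigr, Cdh1 and Hal, by 1.72 ± 0.17, 0.93 ± 0.12 and 0.79 ± 0.15 (SE; edgeR adjusted p = 8.25e-05, 0.000569 and 0.00551). The 2 that fell were the ammonia genes Gls2 and Asl, described next.

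Of 33 tested genes of ammonia, glutamine, glutamate and ornithine handling outside the 10, 5 rose and 2 fell by edgeR, with a median of -0.03. With 1 library left out, 3 to 5 rose and 0 to 3 fell, while DESeq2 called 7 higher and 4 lower and library size as the only scaling gave 4 and 4. The water channel genes Aqp8 and Aqp9 rose by 1.46 ± 0.14 and 0.67 ± 0.12 (SE; edgeR adjusted p = 4.25e-05 and 0.00449), Prodh rose as given above, and the neutral amino acid transporter gene Slc1a4 rose by 0.99 ± 0.22 (SE, edgeR adjusted p = 0.0253). Aqp8 stood at 148, 185 and 134 FPKM in the Ad-Dyrk1b and 55.0, 65.0 and 60.5 FPKM in the Ad-EGFP replicates, a clear gap between the groups. Car5a, a mitochondrial carbonic anhydrase gene picked with its values known, rose by 0.54 ± 0.15 (SE, edgeR adjusted p = 0.0371), and leaving out any library other than replicate 1 of Ad-EGFP ended that call (edgeR adjusted p = 0.0546 to 0.113). Leaving out Ad-EGFP replicate 3, or replicate 1 or 2 of Ad-Dyrk1b, ended the call for Slc1a4 (edgeR adjusted p = 0.0745 to 0.0851). Over all alternatives, left-out fits included, the Car5a call was lost in 8.

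On the urea cycle side, Gls2 fell by 0.53 ± 0.14 (SE, edgeR adjusted p = 0.0325) and Asl, the argininosuccinate lyase gene, picked with its values known, fell by 0.51 ± 0.15 (SE, edgeR adjusted p = 0.0494). Both calls were lost in 4 of the 6 fits that left out 1 library, with edgeR adjusted p up to 0.120 for Gls2 and 0.157 for Asl. Those libraries were replicates 1 and 3 of both groups for Gls2, and replicates 1 and 2 of Ad-Dyrk1b and 1 and 3 of Ad-EGFP for Asl. Over all alternatives, left-out fits included, each of the 2 genes lost its call in 7. For Gls2 these included the fit with the replicate number as a block (edgeR adjusted p = 0.0579). Cps1, also picked in that way, had 330, 422 and 451 FPKM in the Ad-Dyrk1b and 554, 591 and 584 FPKM in the Ad-EGFP replicates. Its groups did not overlap, and its log2 fold change of -0.43 ± 0.15 (SE) was not called (edgeR adjusted p = 0.0743). Arg1 and Ass1, the genes of this list with the highest mean FPKM among those not called, had -0.16 ± 0.14 and -0.03 ± 0.15 (SE; edgeR adjusted p = 0.468 and 0.915).

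**Figure D5:**
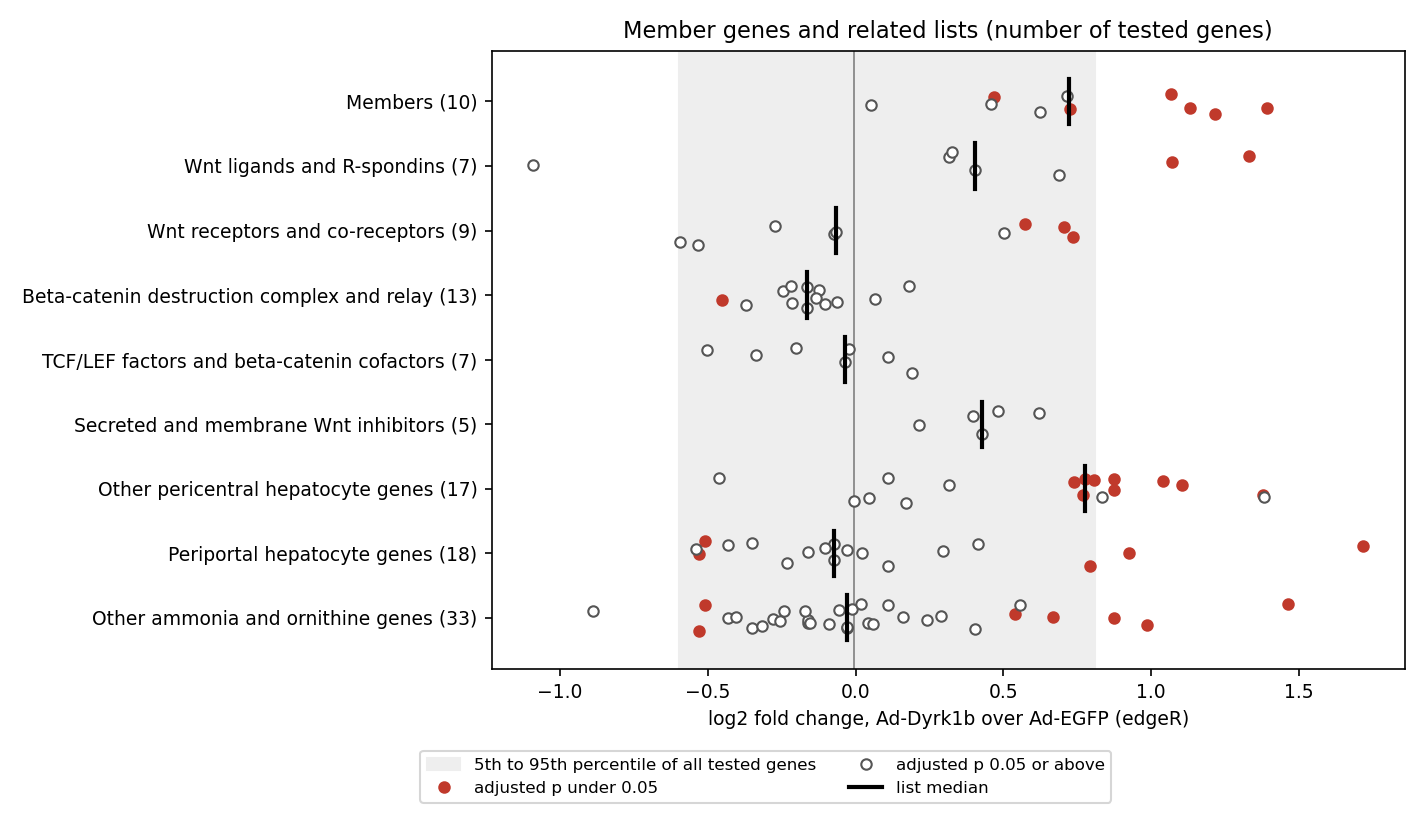
Log2 fold changes (edgeR) of the 10 genes and of 8 related lists, 1 point for each tested gene, red where the adjusted p is under 0.05, with the list median as a bar and the 5th to 95th percentile of all tested genes (-0.60 to 0.81) shaded. The 10 genes and the other pericentral genes have medians of 0.72 and 0.78, and the periportal list has -0.07.

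Markers of other cells were measured beside these results, and their part in them was not tested. Of 10 hepatocyte markers 1 rose by edgeR, the transferrin gene Trf by 0.55 ± 0.15 (SE, edgeR adjusted p = 0.0338), with summed levels of 81112 to 106580 CPM in Ad-Dyrk1b and 90797 to 95634 CPM in Ad-EGFP livers. That call held among the left-out fits only without Ad-Dyrk1b replicate 1, and 8 alternatives in all lost it. Most of the hepatocyte sums came from Alb, with means of 60546 CPM in Ad-Dyrk1b and 65009 CPM in Ad-EGFP livers. Trf had 20065 and 13713 CPM. Of the 10 hepatocyte markers 5 had a log2 fold change above 0, with a median of -0.04. The sum over 8 cholangiocyte (bile duct cell) markers did not overlap, with 355 to 453 CPM against 218 to 255 CPM. Spp1 alone made up 85.4% to 91.0% of each sum, and the other 7 markers summed to 39.6 to 47.7 CPM against 30.2 to 31.8 CPM. Of the 8 markers 7 had a log2 fold change above 0. Spp1 and Tspan8 rose among them, by 0.85 ± 0.13 and 1.59 ± 0.18 (SE; edgeR adjusted p = 0.00134 and 0.000154), while Krt19, Krt7 and Sox9 had 0.32 ± 0.32, 0.41 ± 0.32 and 0.67 ± 0.22 and were not called (SE; edgeR adjusted p = 0.547, 0.435 and 0.0680). Of 7 tested macrophage markers 6 had a log2 fold change above 0, with a median of 0.22. At an unadjusted p under 0.05 edgeR gave 2 higher and 0 lower, and DESeq2 and limma-voom each called 2 higher. By edgeR Cd68 was called, with a rise of 0.47 ± 0.13 (SE, edgeR adjusted p = 0.0304). This call held among the left-out fits only without Ad-EGFP replicate 2, and 8 alternatives in all lost it. The macrophage sums over 8 markers overlapped, at 558 to 663 CPM against 360 to 662 CPM. The top control value held 178 CPM of Marco, which had 3198 counts in Ad-EGFP replicate 3 and 304 to 780 counts in the other libraries. With Marco left out, a choice made with its values known, the sums did not overlap, at 535 to 628 CPM against 343 to 503 CPM. No other marker of this list was left out in turn. Of 8 stellate cell markers edgeR and limma-voom called 0 (1 lower at an unadjusted p under 0.05 by edgeR) and DESeq2 called 1 lower, with sums of 337 to 484 CPM against 371 to 572 CPM. Of 7 tested T and NK cell markers Gzmb, a protease of killer lymphocytes, rose by 1.14 ± 0.14 (SE, edgeR adjusted p = 0.000384). Of the 7, 6 had a log2 fold change above 0, with a median of 0.65. At an unadjusted p under 0.05 edgeR gave 4 higher and 0 lower, while DESeq2 called 2 higher and limma-voom 1. The sums over 8 markers were 32.0 to 43.3 CPM against 18.6 to 24.3 CPM.

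The genes whose pattern over the 6 libraries lay closest to that of Glul, by Euclidean distance in log2 CPM centred on each gene's mean, were Frmd8, Hk2, Cldn1, Frat1 and Rnf144a, at distances of 0.123 to 0.176 among 11051 candidates. Among the 10 genes, Lect2 and Lgr5 lay closest to Glul, at 0.457 and 0.551, and Znrf3 farthest, at 1.13. All these distances include the difference between the groups.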

How the data were processed

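RNA was measured in 6 liver libraries by mRNA sequencing (NEBNext Ultra library kit, Illumina NovaSeq, per the labels' protocols). Per the file headers, the columns deposited by the authors are gene counts (whole numbers), FPKM, the log2 ratio of group means, and p-values with adjusted p-values. Build mm10 and DESeq2 are named, per the submitters' processing notes. Aligner, counter, annotation release and strand setting: not given in the sources used here. Columns were assigned by name. Of 22274 genes, 5089 had no count.

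Counts were compared with edgeR 4.0.16 (R 4.3.3; TMM, filterByExpr with minimum count 10 and minimum total 15, robust quasi-likelihood F-test, two-sided), with Benjamini-Hochberg adjustment over all 13201 tested genes. The fit was tested on simulated counts (13201 genes, 200 changed): 74% of 2-fold and 98% of 4-fold changes were recovered, with 6.52% false calls. Those counts were drawn from edgeR's own dispersion estimates with as many genes raised as lowered, so the choice of scaling was not tested. Alternatives were DESeq2 1.42.0, limma 3.58.1 (voom, and trend on log2 FPKM), other scalings, no filter, a replicate block and leaving out each library. The members and lists were chosen with earlier results of these data known. All 10 members are named. From each list, up to 4 called genes with the smallest p and up to 2 abundant genes not called are named, apart from 1 gene that is not reported here. The SE of an edgeR log2 fold change was calculated from the test, as the absolute log2 fold change over the square root of the F statistic. Likeness to Glul was ranked among genes with a mean of at least 1 FPKM. Coordinates come from GENCODE M21. Total counts were 17326516 to 20024888, so 3 counts correspond to 0.154 to 0.174 CPM (TMM-scaled), which covers counting error only.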

Additional observations from a re-analysis of the deposited data

How the results depend on the processing

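Over all genes, 694 higher and 1051 lower genes were called with library size as the only scaling. With limma-trend on log2(FPKM + 1) and on log2(FPKM + 0.1), 556 and 553 were higher. The share of higher calls was thus 39.8%, 44.2% and 44.2% in these 3 fits, against 60.5%. With 1 library left out, 612 to 800 genes were called higher and 294 to 461 lower. Of the 10 pericentral and Wnt genes, 4 to 7 were called higher and 0 lower in those fits, and 4 to 6 higher in the others. Znrf3 changed sign, to -0.0402 with library size only and -0.0284 and -0.0523 with limma-trend on log2(FPKM + 1) and on log2(FPKM + 0.1). With 1 library left out it ran from -0.102 (without Ad-Dyrk1b replicate 2) to 0.281 (without Ad-Dyrk1b replicate 1), and was also below 0 on leaving out replicate 3 of Ad-Dyrk1b (-0.0523) or of Ad-EGFP (-0.0412). The cause was not tested. Of 35 single genes refitted, the other 34 kept their direction in every alternative, and 20 of 31 calls held in all of them. No label says that a shared replicate number marks a shared animal, litter or day, so the main fit did not pair the libraries. Deviations of libraries with the same number correlated at r = 0.0410, 0.193 and 0.114 across genes. Between Ad-Dyrk1b and Ad-EGFP libraries of different number r ran from -0.23 to 0.0965. Whether the numbers pair the libraries was not tested. With the replicate number as a block 1109 genes were higher and 774 lower, and 6 of the 10 were called. Among the 35 refitted genes only the call of Gls2 changed in that fit. The fit without edgeR's robust option was chosen after seeing the data. Lgr5 and Axin2 had at most 118 counts per library and Wnt2 and Wnt4 at most 60, which limits the precision of their fold changes.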
